A study of Gallus gallus with 9 samples.

Results

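Expression of 7 genes of Müller glia, GLUL, VIM, RLBP1, SLC1A3, SOX2, SOX9 and CA2, was examined in amacrine cell layer tissue isolated from chick retina. All chicken probe sets that carry these symbols in the platform annotation were taken, which gave 9 of 37693 probe sets and 7 of 13008 named genes: 2 probe sets each for GLUL and SLC1A3 and 1 for each of the other genes. Of these, 8 probe sets of 6 genes passed the filter on dim signal described below, among 12975 that did, and the SOX2 probe set did not. Chicks (Gallus gallus, strain and age not given in the sources used here) wore a lens of -7 D, which stimulates eye growth, or of 7 D, which suppresses it, over 1 eye for 24 h, and untreated chicks of matched age served as controls. Lights of 500 lux were on for 12 h daily. Tissue was isolated by laser microdissection of 10 µm sections, 10 to 100 ng of RNA went through a labelling protocol with 2 cycles, and 3 samples per group were hybridised to Affymetrix Chicken Genome arrays. The labels give 3 chicks and 3 separate samples per group, which fits 1 chick per sample, but do not tie samples to chicks, so p-values rest on the spread among these samples.

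Müller glia are the radial glial cells of the retina. Their cell bodies lie in the inner nuclear layer among amacrine and bipolar cells, and their processes run from the inner surface to the photoreceptors, passing through the amacrine cell layer. They take up the glutamate that neurons release, turn it into glutamine, buffer acid and carbon dioxide, and hand retinoid back to cones. The genes studied here cover those tasks. SLC1A3 encodes the glutamate transporter GLAST, GLUL encodes glutamine synthetase, RLBP1 encodes the retinaldehyde-binding protein CRALBP, CA2 encodes a carbonic anhydrase, VIM encodes the intermediate filament protein vimentin, and SOX2 and SOX9 encode transcription factors that Müller glia keep from their progenitors. SOX2 is also known from cholinergic amacrine cells.

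Values are log2 of the deposited intensity, and the filter kept a probe set for testing if 3 or more of the 9 arrays had it at log2 4 or higher. The brightness of different probe sets depends on their sequences, so levels are compared between arrays within a probe set and not between genes. The number of chicken probe sets at or above that floor was 12721 to 12835 per array. Control probe sets for the 3' end of an RNA read far above those for its 5' end on every array. The difference was log2 7.39 to 7.99 for actin, 3.66 to 4.39 for GAPDH and 5.43 to 6.78 for EF1A. A probe set below the filter therefore does not show that its RNA was absent. Minus lens replicate 3 stood apart: its mean correlation with the other arrays was 0.953, against 0.971 to 0.975 for the others, and its hybridisation control probe sets averaged log2 13.38, against 11.83 to 12.53. Values that moved by over 1.5 times without that array are given both ways, for listed genes in the comparison with controls. The bipolar genes SCGN, TRPM1, PRKCA, BHLHE22 and ISL1 are given over all arrays only. In a captured bulk sample, fewer Müller cells and less of an RNA per Müller cell cannot be told apart.

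The glutamate enzyme and transporter were measured on every array, by 2 probe sets each. On the brighter GLUL probe set (Entrez gene 396489) the controls stood at log2 13.33, 13.29 and 14.06, the minus lens arrays at 13.28, 13.29 and 12.38 and the plus lens arrays at 12.60, 13.55 and 12.70. Control replicate 3 was the highest array and minus lens replicate 3 the lowest, 3.21-fold apart, and the groups overlapped. The dimmer GLUL probe set read 12.68, 12.10 and 12.08 in controls, 12.33, 11.84 and 11.43 under the minus lens and 12.01, 11.67 and 12.12 under the plus lens. Its highest array was control replicate 1, not control replicate 3, so the 2 GLUL probe sets placed the control arrays in a different order. Both had their lowest value on minus lens replicate 3. The annotation ties them to different source sequences of the same gene.

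On the brighter SLC1A3 probe set (Entrez gene 395443, with an identifier whose suffix marks probes shared by more than 1 transcript) the controls stood at log2 11.51, 11.96 and 11.86, the minus lens arrays at 11.36, 12.88 and 11.97 and the plus lens arrays at 11.46, 12.20 and 11.47. The dimmer one read 10.58, 10.72 and 10.84, then 10.50, 11.72 and 11.27, then 10.77, 11.00 and 10.58 in the same order of groups. Both SLC1A3 probe sets were highest on minus lens replicate 2 and lowest on minus lens replicate 1, so the extremes of all 9 arrays lay inside a single group.

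The retinoid carrier and the carbonic anhydrase were also measured on all arrays. RLBP1 (Entrez gene 415492) stood at log2 10.45, 10.66 and 10.58 in controls, 10.57, 11.23 and 10.26 under the minus lens and 10.54, 10.68 and 10.18 under the plus lens. Its controls lay within 0.21 of each other, and minus lens replicate 2 lay above all other arrays. CA2 (Entrez gene 396257) stood at 10.04, 9.74 and 10.58 in controls, 10.09, 10.11 and 8.41 under the minus lens and 9.73, 10.49 and 9.40 under the plus lens. Minus lens replicate 3 held the lowest CA2 value, and the 9 arrays spanned 4.49-fold. Without that array the span of CA2 was 2.26-fold, below the 2.88-fold of the brighter SLC1A3 probe set and the 2.75-fold of the brighter GLUL one.

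The structural gene VIM varied less. Its probe set (Entrez gene 420519) read log2 12.60, 12.75 and 12.83 in controls, 12.92, 13.17 and 12.61 under the minus lens and 12.40, 12.84 and 12.36 under the plus lens. The 9 arrays spanned 1.76-fold, and the groups overlapped.

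Of the transcription factors, SOX9 was measured at a modest signal and SOX2 was not detectable. SOX9 (Entrez gene 374148) passed the filter, at log2 5.63, 5.60 and 6.10 in controls, 5.65, 5.63 and 5.65 under the minus lens and 5.63, 5.66 and 5.24 under the plus lens. Apart from control replicate 3 and plus lens replicate 3, its arrays lay close together. Control replicate 1, plus lens replicate 1 and minus lens replicate 2 had the same SOX9 value. The brighter GLUL probe set also had a tie, between control replicate 2 and minus lens replicate 2. Whether SOX9 lay at a floor of the method that made the intensities was not tested. SOX2 (Entrez gene 396105) stood between 2.64 and 2.70 on all 9 arrays, below the floor, with a range of 0.06. GCRMA, the authors' summary method, pulls dim probe sets to such a narrow floor, so SOX2 was not detectable with this probe set, which does not show that the RNA was absent. Beside it, CHAT, the acetylcholine enzyme of the amacrine cells that also carry SOX2, stood at 2.73, 6.50 and 6.71 in controls.

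**Figure D1:**
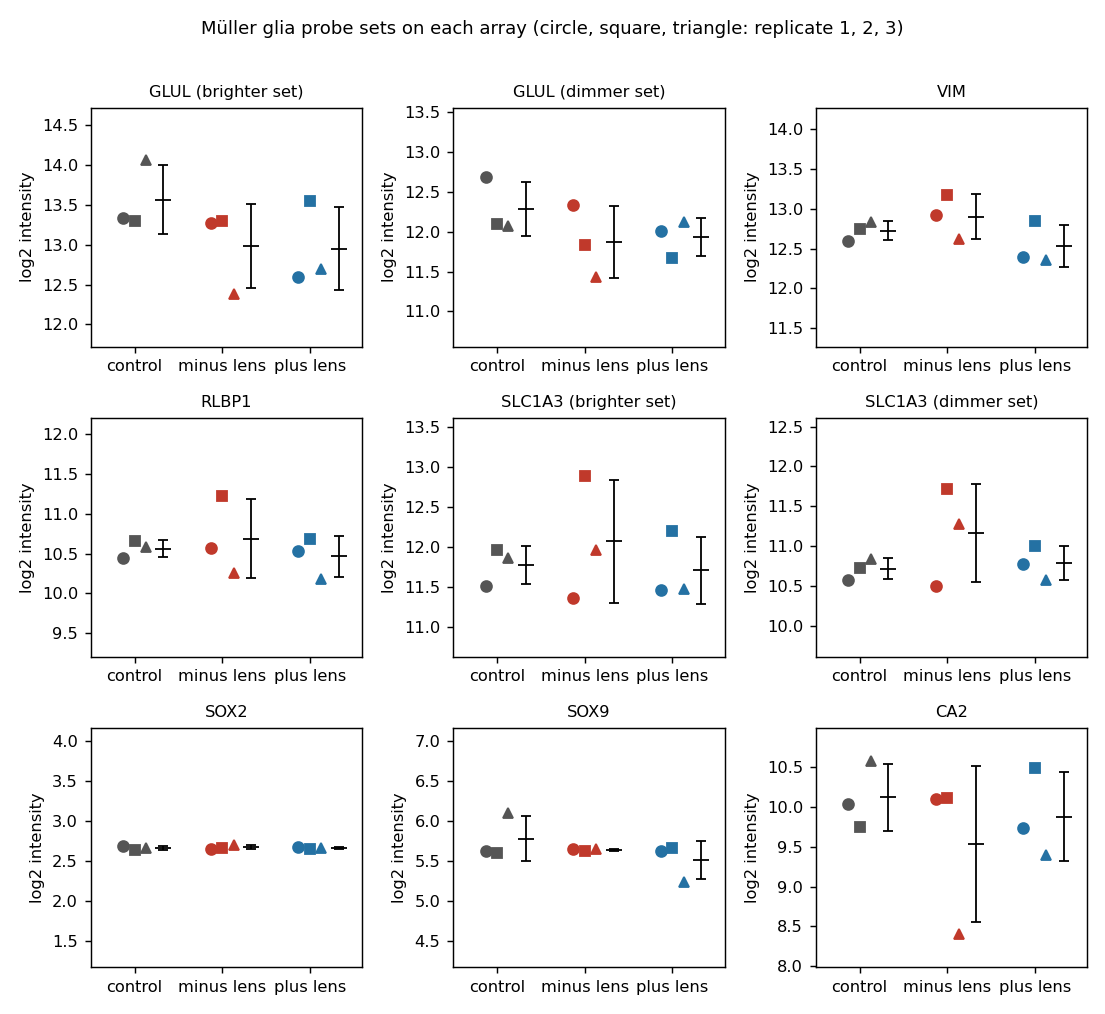
Log2 intensity (vertical axis, 3 log2 units in each panel) of the 9 Müller glia probe sets on the 3 control, 3 minus lens and 3 plus lens arrays, with circle, square and triangle for replicates 1, 2 and 3 and a bar for the group mean ± SD. The groups overlap in every tested panel, CA2 has its lowest point on minus lens replicate 3 at 8.41, and SOX2 lies flat near 2.67.

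Pooled over the 3 groups, CA2, SLC1A3, GLUL and RLBP1 differed between arrays of the same treatment more than most probe sets of like signal. SOX9 differed less. The SD between arrays within groups was 0.69 for CA2, 0.52 and 0.38 for SLC1A3 and 0.49 and 0.35 for GLUL, against a median of 0.24 over all 12975 tested probe sets. Among probe sets within 1 log2 unit of the same mean signal, CA2 had a larger SD than 99.0% of 2008, the brighter SLC1A3 probe set than 98.8% of 490 and the brighter GLUL probe set than 98.7% of 152. The dimmer probe sets lay above 95.5% (SLC1A3) and 94.1% (GLUL) of their like and RLBP1, with an SD of 0.33, above 89.6%. VIM (SD 0.23) lay above 73.7% and SOX9 (SD 0.21) above 33.5% (48.2% without minus lens replicate 3). These shares describe the arrays and carry no test. The SDs in controls, minus lens and plus lens were 0.42, 0.98 and 0.56 for CA2 and 0.11, 0.50 and 0.26 for RLBP1. For SLC1A3 they were 0.23, 0.77 and 0.42 (brighter) and 0.13, 0.62 and 0.21 (dimmer). For GLUL they were 0.43, 0.52 and 0.52 (brighter) and 0.34, 0.45 and 0.23 (dimmer). RLBP1 and the dimmer SLC1A3 probe set were thus wide mainly under the minus lens.

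CA2 and the brighter GLUL and SLC1A3 probe sets stayed wide for their signal when minus lens replicate 3 was left out. What made the spread was not tested, and SDs without minus lens replicate 2, the highest array for SLC1A3 and RLBP1, are not given. Without minus lens replicate 3 the SD was 0.44 for CA2, 0.43 for the brighter GLUL probe set and 0.57 for the brighter SLC1A3 one, and these lay above 96.4%, 98.0% and 99.4% of probe sets of like signal. The CA2 value moved by over 1.5 times with that array, whereas the others moved less. Some other lists on the same arrays were slightly wider and others narrower, and none of these differences in spread was tested. The median SD of the 8 Müller glia probe sets was 0.37, and that of 12 other genes known from Müller glia, described further on, was 0.29 (0.24 without minus lens replicate 3), nearer to the median of all tested probe sets. Medians of 0.37 to 0.41 were found for 12 genes of retinoid handling (0.39), 4 of oligodendrocytes (0.38), 3 of pigment epithelium (0.39), 2 of photoreceptors (0.41) and 1 of endothelium (0.37). Without minus lens replicate 3 these were 0.33, 0.32, 0.27, 0.45 and 0.39 in the same order. The median of the 8 Müller glia probe sets was then 0.36. The medians were 0.16 for 15 amacrine cell genes and 0.18 for 9 bipolar cell genes. The amacrine list held wide genes too: the peptide genes GCG and VIP had control SDs of 0.53 and 0.41, where the brighter GLUL probe set had 0.43, and CHAT had the highest SD within groups, 1.72.

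**Figure D2:**
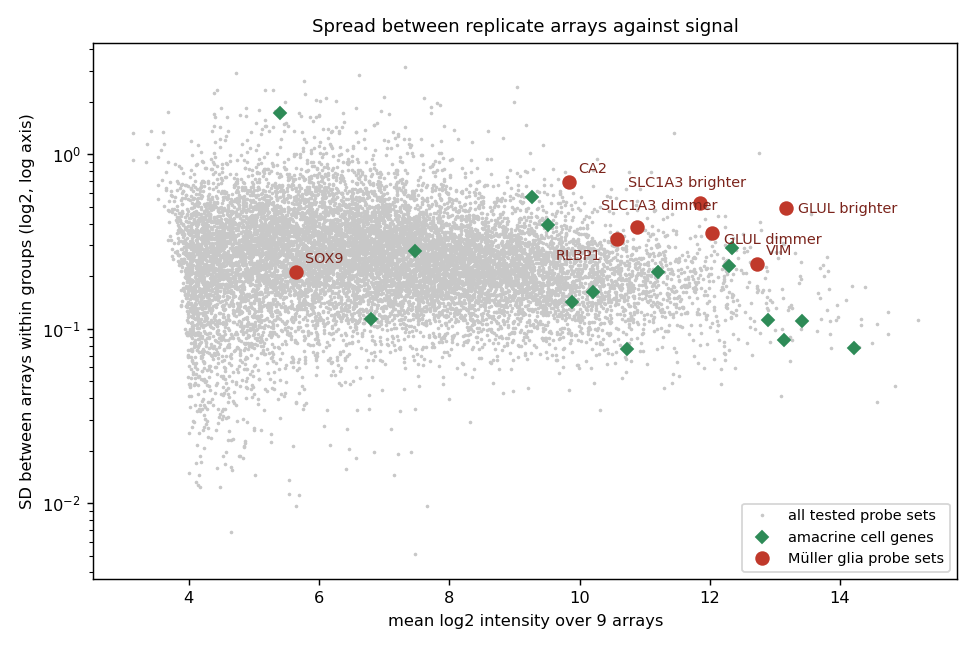
SD between arrays within groups (vertical log axis, log2 units) against mean log2 intensity (horizontal axis) for the 12975 tested probe sets (grey), 15 amacrine cell genes (green diamonds) and 8 Müller glia probe sets (red, labelled). CA2, SLC1A3 and GLUL lie along the upper edge of the cloud for their signal, at 0.35 to 0.69, most amacrine genes lie lower and CHAT lies higher, at 1.72.

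Particular arrays held the high or low end for many members. Plus lens replicate 2 held the highest value of its group for 7 of the 8 probe sets, the dimmer GLUL one being the exception, where 38.8% of all tested probe sets were highest on that array. Minus lens replicate 2 held the highest value for 6 of 8 (32.3% of all tested probe sets) and control replicate 3 for 5 of 8 (33.9%). The lowest values of the groups lay on minus lens replicate 3 for 5 of 8 (47.0%) and on plus lens replicate 3 for 5 of 8 (32.2%). The widest range fell in the minus lens group for 6 of 8 probe sets, but so it did for 50.0% of all tested probe sets.

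**Figure D3:**
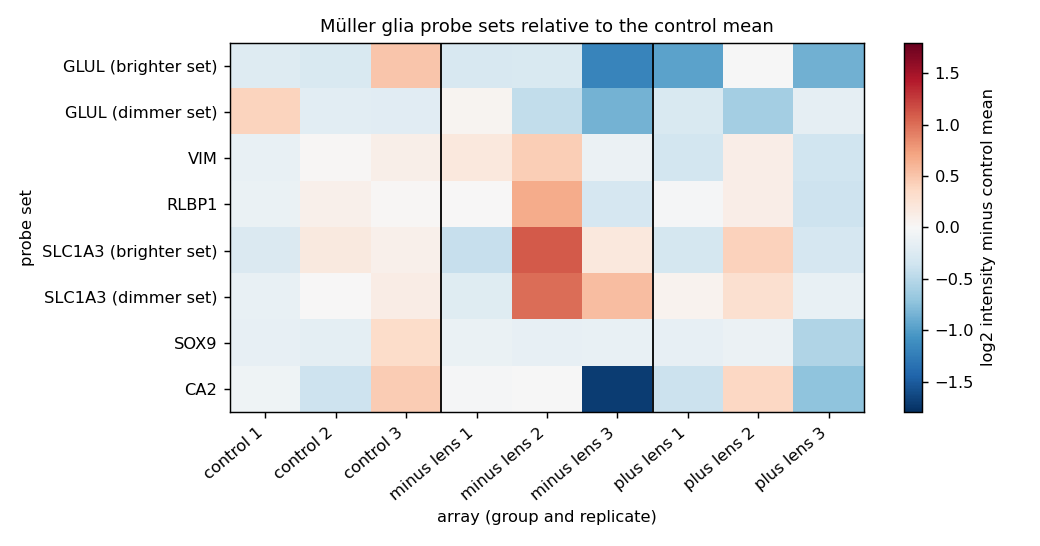
Log2 intensity minus the control mean (colour scale) for the 8 tested Müller glia probe sets (rows) on the 9 arrays (columns, groups divided by lines). Minus lens replicate 3 is lowest for CA2 and both GLUL probe sets, and minus lens replicate 2 is highest for SLC1A3 and RLBP1. Plus lens replicate 2 stands above plus lens replicate 3 in all rows but the dimmer GLUL probe set.

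Pairs of probe sets were compared by correlation over the 9 arrays, as a description with no p. The arrays share chip type, treatment within groups and normalisation. Of 28 pairs, 10 had a Pearson r above 0.5 and 7 had an r below 0, and the median was 0.42. The brighter GLUL probe set ran with CA2 (r = 0.88, Spearman rho = 0.88), also over deviations from the group means (r = 0.93), without minus lens replicate 3 (0.88) and without the 2 arrays whose GLUL values were farthest from the median (0.82). VIM ran with RLBP1 (r = 0.83, rho = 0.82), and with the brighter SLC1A3 probe set (r = 0.71, rho = 0.45). RLBP1 ran with that SLC1A3 probe set (r = 0.77, rho = 0.57). Over deviations from the group means these r were 0.86, 0.70 and 0.75, and without minus lens replicate 3 they were 0.85, 0.74 and 0.88. Without the 2 arrays farthest in the first gene they were 0.46, 0.28 and 0.15, each lower than over all arrays. Leaving out a gene's extremes also narrows its range, and how far the r rest on those arrays was not tested.

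The probe sets of a gene did not always go together. The SLC1A3 pair had an r of 0.91 (rho = 0.83, and 0.69 without the 2 farthest arrays). The identifiers of this pair differ only in their suffix, unlike the GLUL pair with its different source sequences. Whether the SLC1A3 probes overlap was not tested, so their likeness may not be that of separate measurements. The GLUL pair had an r of 0.31 (rho = 0.18), 0.01 over deviations from the group means and -0.06 without minus lens replicate 3. The dimmer GLUL probe set ran against the dimmer SLC1A3 probe set (r = -0.69, rho = -0.92). The likeness of GLUL and CA2 was read from 1 of the 2 GLUL probe sets: with the dimmer one, CA2 had an r of 0.40 (rho = 0.02).

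**Figure D4:**
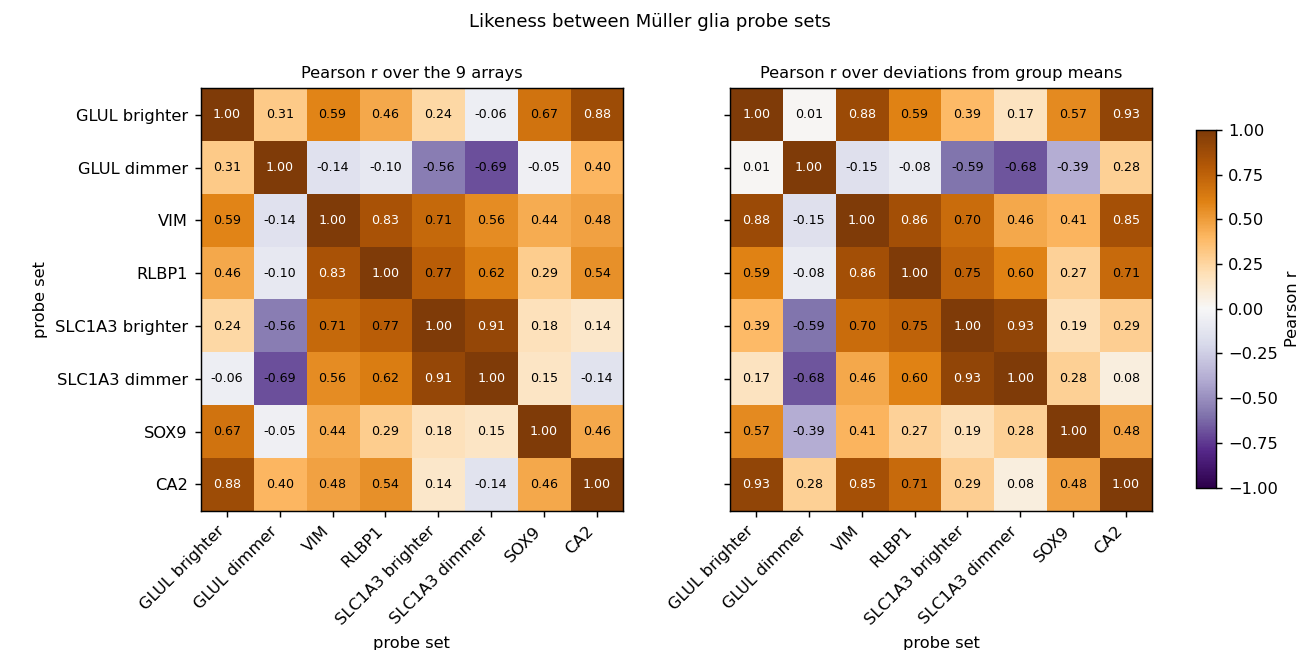
Pearson r between the 8 tested Müller glia probe sets over the 9 arrays (left) and over deviations from the group means (right), with the colour scale from -1 to 1 and r printed in each cell. The brighter GLUL probe set and CA2 have 0.88 and 0.93, the SLC1A3 pair 0.91 and 0.93, and the GLUL pair 0.31 and 0.01.

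Among 6543 other named probe sets with an SD of at least 0.2 over the 9 arrays, those most like the brighter GLUL probe set were STON2 (r = 0.96, rho = 0.95), PAPSS1 (r = 0.94), THYN1 (r = 0.94), VRK1 (r = 0.93) and EPB41L3 (r = 0.92). Over deviations from the group means their r was 0.91 to 0.98. Most like VIM were IGSF21 (r = 0.91, rho = 0.98), PPIH (r = 0.90), HPCAL1 (r = 0.90), SPTSSB (r = 0.90) and SEC22B (r = 0.89), with 0.83 to 0.89 over deviations. None of the Müller glia genes listed here was among either 5. With 9 arrays and 6543 candidates, high values of r arise in number, and no p is attached to them.

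Minus lens wear, which stimulates eye growth, went with no called difference in the Müller glia genes. GLUL had a log2 difference from controls of -0.58 on the brighter probe set (12.98 ± 0.52 against 13.56 ± 0.43, SD, n = 3) and of -0.42 on the dimmer one (11.87 ± 0.45 against 12.29 ± 0.34), with 95% intervals of -1.36 to 0.20 and -0.99 to 0.15. CA2 had a log2 difference of -0.58 (interval -1.67 to 0.51) and SOX9 of -0.14 (interval -0.54 to 0.27). SLC1A3 had 0.29 (interval -0.53 to 1.12) and 0.45 (interval -0.17 to 1.07), VIM 0.18 (interval -0.21 to 0.57) and RLBP1 0.12 (interval -0.42 to 0.66). In limma the adjusted p was 0.741 to 0.921 over the 8 probe sets. Of the 8, 0 were called and 0 had an unadjusted p under 0.05 in limma, against 0.00771% of all tested probe sets called (1 probe set). Groups without overlap of their arrays were found for 0 of the 8, against 10.0% of all tested. The members had 4 log2 differences above 0 and 4 below, with a median of -0.01, and all tested probe sets had a median of -0.03 with 44.1% above 0.

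Leaving out minus lens replicate 3 changed the size of these differences. CA2 then had a log2 difference of -0.02, the brighter GLUL probe set -0.28, the dimmer one -0.20, VIM 0.32 and RLBP1 0.34. Without minus lens replicate 2 the SLC1A3 differences were -0.11 and 0.17, RLBP1 had -0.15 and VIM 0.04. Without minus lens replicate 1 the SLC1A3 differences were 0.65 and 0.78, and the dimmer GLUL probe set had -0.65. SOX9 had 0.03 without control replicate 3.

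Plus lens wear, which suppresses eye growth, also went with no called difference. GLUL had a log2 difference of -0.61 on the brighter probe set (12.95 ± 0.52 against 13.56 ± 0.43, SD, n = 3, interval -1.39 to 0.17) and of -0.35 on the dimmer one (interval -0.92 to 0.22). SOX9 had -0.27 (interval -0.67 to 0.14), CA2 -0.24 (interval -1.33 to 0.85), VIM -0.19 (interval -0.58 to 0.20) and RLBP1 -0.10 (interval -0.63 to 0.44). SLC1A3 had -0.07 (interval -0.89 to 0.76) and 0.07 (interval -0.55 to 0.69). The adjusted p in limma was 0.9998 for each. Of the 8 probe sets 0 were called and 0 had an unadjusted p under 0.05 in limma, against 0.00771% called among all tested (1 probe set), and the arrays did not overlap for 0 of 8, against 6.67% of all tested. With 7 log2 differences below 0 and 1 above, the members' median was -0.22, beside -0.002 for all tested probe sets, of which 49.4% lay above 0. The GLUL means lay below the control mean in both lens groups, which share those controls, and control replicate 3 held the highest value of the brighter probe set. Without control replicate 3 its differences were -0.33 and -0.36 under the minus and the plus lens. The dimmer probe set was highest on control replicate 1, and without that array its differences were -0.22 and -0.15. CA2 under the plus lens had -0.01 without control replicate 3, -0.0054 without plus lens replicate 3 and -0.55 without plus lens replicate 2. SOX9 there had -0.10 without control replicate 3.

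The direct comparison of the lenses asks whether the sign of defocus mattered. The GLUL difference between the lenses (minus lens less plus lens) was log2 0.03 on the brighter probe set (interval -0.75 to 0.81) and -0.07 on the dimmer one (interval -0.63 to 0.50). These intervals are wide, so they do not show that the lenses act alike. VIM was the member nearest to a call, at 12.90 ± 0.28 under the minus lens against 12.53 ± 0.27 under the plus lens (SD, n = 3), a log2 difference of 0.37 (SE 0.17, interval -0.02 to 0.76, adjusted p = 0.721 in limma). SLC1A3 had 0.36 and 0.38, RLBP1 0.22, SOX9 0.13 and CA2 -0.34. Leaving out single arrays moved these values, and turned the sign of all but VIM and the dimmer SLC1A3 probe set. Without minus lens replicate 2 the brighter SLC1A3 probe set had -0.04, the dimmer one 0.10 and RLBP1 -0.06. Without minus lens replicate 3 CA2 had 0.22 and RLBP1 0.43, and without plus lens replicate 3 SOX9 had -0.0039. The GLUL signs turned as well, to 0.15 on the dimmer probe set without minus lens replicate 3, where the brighter one had 0.34, and to -0.14 on the brighter one without plus lens replicate 1. VIM kept its sign, at 0.23 to 0.52 over the arrays left out. Of the 8, 0 were called and 0 had an unadjusted p under 0.05 in limma, against 0.0154% called among all tested (2 probe sets), and 0 of 8 had arrays without overlap, against 9.68% of all tested. An F test over the 3 groups in limma gave 0 called members, with adjusted p of 0.919 to 0.960, against 0.0154% of all tested.

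**Figure D5:**
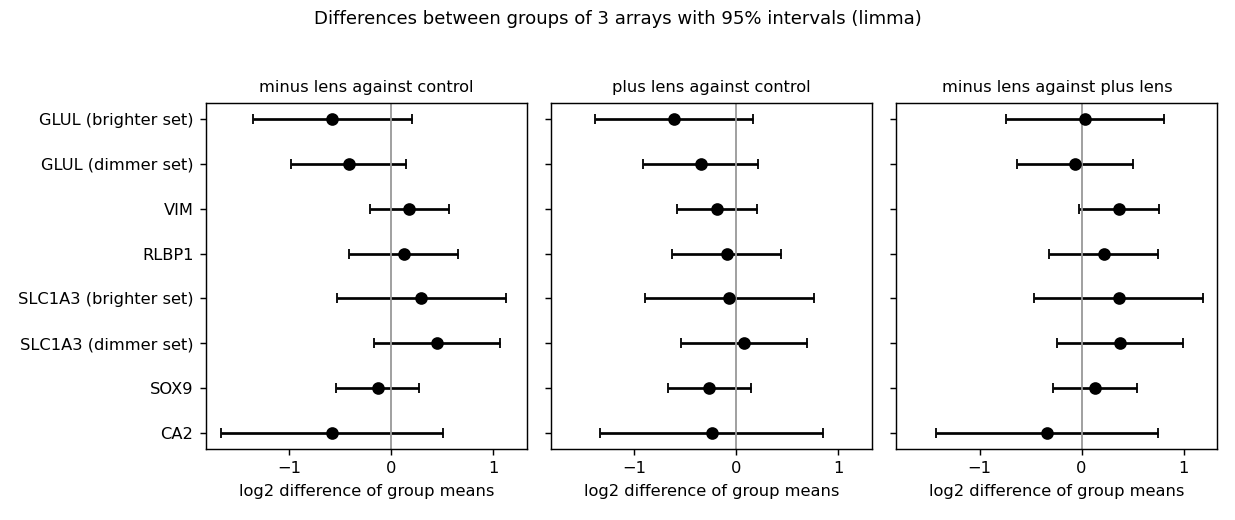
Log2 difference of group means with its 95% interval from limma (horizontal axis) for the 8 tested Müller glia probe sets in the 3 comparisons of 3 against 3 arrays. Every interval includes 0, and those of CA2 are the widest, with -1.67 to 0.51 for minus lens against control.

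Other genes known from Müller glia were partly measured: 12 of 27 listed passed the filter, 12 had a probe set that did not and 3 had no probe set with that symbol. Those that did not pass include GFAP, the filament protein of reactive glia, at log2 2.93 in controls, the water channel AQP4 and the Notch effector HES5. In limma 0 of the 12 were called in any comparison. The median log2 difference was -0.06 under the minus lens (4 above 0, 8 below) and -0.13 under the plus lens (5 above, 7 below). CLU, which encodes the secreted chaperone clusterin, varied most, at 6.05, 8.06 and 6.23 in controls, 6.52, 7.92 and 5.40 under the minus lens and 5.85, 3.91 and 5.58 under the plus lens. Its log2 difference of -1.67 under the plus lens had an adjusted p of 0.9998 in limma. The gap junction gene GJA1 had 0.39 there, the fatty acid-binding FABP7 -0.36 and the GABA transporter gene SLC6A11 -0.33 under the minus lens (-0.17 without minus lens replicate 3), none of them called.

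Of the genes that work beside GLUL and SLC1A3 in glutamate and glutamine turnover, 8 of 19 were tested and 0 were called in limma. SLC1A4, a neutral amino acid transporter, had a log2 difference of -0.54 and SLC1A2, the glutamate transporter GLT-1, one of 0.79 under the plus lens. The SLC1A2 signal lay near the filter floor, at 4.47, 3.65 and 4.72 in controls, and its difference had an SE of 0.61. GCLM, of glutathione synthesis, had -0.35 there, and SLC38A2, a glutamine transporter, had 0.21. The list's median was 0.08 under the minus lens (0.16 without minus lens replicate 3) and 0.04 under the plus lens.

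Of the retinoid genes beside RLBP1, 12 of 22 were tested, 10 with a log2 difference above 0 under the minus lens (median 0.20) and 7 under the plus lens (median 0.10), and 0 were called in limma. Without minus lens replicate 3, 7 lay above 0 under the minus lens (median 0.12). RBP4, the retinol carrier of blood, had the largest difference from controls in this list: 4.56, 4.32 and 5.05 in controls, 7.45, 5.48 and 5.48 under the minus lens and 5.48, 6.30 and 5.62 under the plus lens. Its lens arrays all lay above its controls, which were near the filter floor, with log2 differences of 1.49 (adjusted p = 0.683 in limma) and 1.16. Groups without overlap were found for 10.0% (minus lens) and 6.67% (plus lens) of all tested probe sets. RGR, an opsin of Müller glia and pigment epithelium, had 1.33 under the minus lens but ran from 3.25 to 7.43 in controls, a spread wider than that difference, and had 0.76 without minus lens replicate 3. Its difference between the lenses, 2.20, was larger than either difference of RBP4 from controls and was not called in limma (adjusted p = 0.759). ALDH1A1, which makes retinoic acid, had 1.24 and RPE65, the retinoid isomerase of pigment epithelium, 0.59 under the plus lens. Both lay near the filter floor in controls, at 3.97, 5.30 and 3.78 for ALDH1A1 and 3.98, 4.39 and 4.42 for RPE65.

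Of intermediate filament genes other than VIM, 6 of 15 were tested and 0 called in limma. NEFL, a neurofilament gene of neurons, had a log2 difference of -1.08 under the minus lens, where replicate 3 stood at 3.49, and -0.69 without that array. NEFM had -0.36 under the plus lens, the lamin gene LMNB1 -0.27 under the minus lens and NEFH 0.21 under the plus lens. Of SOX genes beside SOX2 and SOX9, 5 of 12 were tested and 0 called in limma. SOX3, the closest relative of SOX2 among them, had 0.94 under the minus lens, made by replicate 3 at 7.91 against 4.42 to 5.08 on the other 8 arrays, and -0.17 without that array. SOX18 had 0.51 (0.26 without it), SOX8 -0.13 and SOX5, under the plus lens, -0.10.

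Of other carbonic anhydrases and acid or lactate transporters, 9 of 20 were tested and 0 called in limma. Under the minus lens BSG, the partner of lactate transporters, had a log2 difference of -0.45, CA10 of 0.42 and the lactate exporter gene SLC16A3 of -0.35 (-0.16 without minus lens replicate 3). SLC4A10, a bicarbonate transporter, had -0.31 under the plus lens. Of Notch pathway genes, which keep glia in their fate, 9 of 16 were tested and 0 called in limma. The receptor gene NOTCH2 stood at 7.48, 7.24 and 7.78 under the minus lens against 6.40, 6.54 and 6.60 in controls (log2 0.98, SE 0.31, adjusted p = 0.683 in limma). Its groups did not overlap, as was so for 10.0% of all tested probe sets. The Notch ligand gene JAG1 had 0.52, DLL1 had -0.37 under the plus lens and NOTCH1 0.19.

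Markers of neighbouring cells were read on the same arrays, and their part in the differences of the Müller glia genes was not tested. Of 15 amacrine genes measured of 20 listed, 13 had a lower mean under the minus lens than in controls (median log2 -0.17, and 11 without minus lens replicate 3), and their summed intensity was 56635 to 65208, against 64295 to 70602 in controls and 62520 to 69393 under the plus lens. Of the listed amacrine genes TH and NEUROD4 had a probe set that did not pass the filter, and 3 had no probe set with that symbol. Among the 15 that passed, GAD1, PENK and PAX6 stood at log2 14.26, 13.47 and 13.13 in controls. Of 9 bipolar cell genes measured of 15 listed, 6 had a higher mean under the minus lens (median 0.39). Without minus lens replicate 3, 7 had a higher mean (median 0.32). The summed intensity of the 9 was 14126 to 19178 under the minus lens, against 13055 to 14627 in controls and 14219 to 16228 under the plus lens. Among them VSX1, GNG13, OTX2 and GRIK1 had log2 differences from controls of 0.96, 1.39, 0.90 and 0.81, SCGN 0.39 and TRPM1 0.09. PRKCA had -0.02, BHLHE22 -0.03 and ISL1 -0.04, and 0 of the 9 were called in limma. The summed intensity of the 6 measured Müller glia genes overlapped throughout, at 21909 to 31212 in controls, 17206 to 30384 under the minus lens and 16615 to 27136 under the plus lens. Each of these sums mainly follows its brightest probe sets. BHLHE22, at log2 13.33 in controls, weighed most in the bipolar sum, and GLUL, at 13.56, in the Müller glia sum.

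Other cell types had few markers above the filter. Of oligodendrocyte genes 4 of 11 were measured, among them MBP, a myelin protein gene, at log2 11.58 ± 0.25 (SD, n = 3) in controls, and the mean of the 4 differed from that of the controls by log2 -0.08 on minus lens replicate 1, -0.43 on replicate 2 and 0.83 on replicate 3. On replicate 3 CLDN11 stood 2.37, UGT8 0.85 and MBP 0.28 above their control means, and OLIG2 had -0.20. Of photoreceptor genes 2 of 18 were measured, of microglia 2 of 10, of endothelium 1 of 10, of pigment epithelium 3 of 9, of horizontal cells 4 of 10, of ganglion cells 9 of 15 and of red blood cells 0 of 12. Pigment epithelium is a tissue that also expresses RLBP1. Of its listed genes MITF, RPE65 and SERPINF1 passed the filter, at log2 7.00, 4.26 and 4.09 in controls. The pigment genes TYR, TYRP1 and PMEL did not pass, nor did TTR, BEST1 and LRAT.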

How the data were processed

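RNA abundance was measured on 9 arrays. The deposited values are 1 linear intensity per probe set and array, made by the authors with GCRMA, whose version is not stated, per the submitters' processing notes. This method adjusts for background by probe base composition and normalises between arrays. It removes changes in total RNA, so differences are relative to other transcripts. Log2 was taken with no pseudocount. Of 38535 probe sets, 96 control and 746 non-chicken or reporter probe sets were left out. Symbols came from the platform annotation, and matching by Entrez number to RefSeq (GRCg7b) changed 0 of them. No coordinates or sequences are given.

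Groups were taken from the sample titles, because the source label of the minus lens samples names both lenses. Differences were tested across all 12975 probe sets past the filter with limma 3.58.1 (R 4.3.3), fitting all 9 arrays together and letting the eBayes prior follow intensity. Tests were two-sided, p-values were adjusted by Benjamini-Hochberg, and the threshold was 0.05. The code was tested on simulated data. Precision is set by having 3 arrays a group. The median SE of log2 differences was 0.19 over all tested probe sets, and the SE was 0.17 to 0.48 for the Müller glia probe sets. Of the array pairs, 0 were identical.

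The members and lists were chosen with earlier results of these data known. Beside every member probe set, the text names the 5 probe sets most like GLUL and VIM. For the other Müller glia genes, the lists by function and the bipolar genes, it names up to 4 genes per list. These had the largest lens difference on the brightest probe set. The other cell type lists are given as counts with a few genes, and their largest lens differences are not all printed. Further genes (GFAP, AQP4, HES5, MBP, GAD1, PENK, PAX6, the remaining bipolar genes and unmeasured markers) were named after their values were seen. Alternatives were other filters, quantile normalisation, median centring, a pseudocount of 16, arrayWeights, no intensity trend, only the 6 arrays compared, the replicate number as a block, the mean of a gene's probe sets, and leaving out each array. For the listed genes and the ranges, leaving out minus lens replicate 3 was added after seeing the data. The replicate numbers were not treated as pairs. The correlation of same-numbered deviations ran from -0.06 to 0.16, which cannot show whether same-numbered samples were handled together.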

Additional observations from a re-analysis of the deposited data

How the results depend on the processing

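The count of called Müller glia probe sets was 0 in all 3 comparisons and in the F test under every alternative run, with adjusted p in limma of 0.328 or more. With the replicate number as a block it was 0 as well, and the sample titles give same-numbered samples nothing in common but the number. SOX2 was tested only with no filter, where its lowest adjusted p in limma was 0.872. Over all tested probe sets the alternatives called 0 to 4 (minus lens against control, 1 as reported, 4 without minus lens replicate 1), 0 to 3 (plus lens against control, 1 as reported, 3 with arrayWeights) and 0 to 2 (between the lenses, 2 as reported); the block gave 1, 2 and 0. Of 441 alternative values of the 24 log2 differences, 420 kept their sign and 21, of 12 differences, turned it. Of these values 0 crossed the threshold, and the cause was not tested. All but 3 of the 21 came from leaving out 1 array: those without minus lens replicate 2 were SLC1A3 (brighter) and RLBP1 against control and against plus lens, and GLUL (brighter) against plus lens, and without minus lens replicate 3 both CA2 and GLUL (dimmer) turned against plus lens. For minus lens against control, the range over arrays left out was -0.15 to 0.34 for RLBP1, -0.11 to 0.65 for the brighter SLC1A3 probe set and -0.22 to 0.027 for SOX9. For plus lens against control it was -0.20 to 0.046 for RLBP1, -0.31 to 0.056 for the brighter SLC1A3 probe set and -0.039 to 0.17 for the dimmer one. For minus lens against plus lens it was -0.14 to 0.34 and -0.30 to 0.15 for the brighter and the dimmer GLUL probe set, -0.055 to 0.43 for RLBP1, -0.044 to 0.72 for the brighter SLC1A3 probe set, -0.0039 to 0.21 for SOX9 and -0.62 to 0.22 for CA2. With arrayWeights CA2 had 0.12 there. The mean over a gene's probe sets gave -0.017 for GLUL there and 0.00079 for SLC1A3 in plus lens against control. The median r between members, 0.42 as reported, was 0.26 after quantile normalisation, 0.28 after median centring and 0.34 to 0.45 without 1 array. Signal at the floor of the summary method limits SOX2, the signal of SOX9 was modest, and 3 arrays per group limit all differences.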
